A study of Mus musculus with 2 samples.

Results

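Transcripts of autophagy and of the lysosome were compared between WT and *Gde5* skKO skeletal muscle in 65 genes represented on the arrays, out of 27570 genes in all. The genes were taken by name from the array annotation. They comprised every *Atg* gene with a number, the *Map1lc3* and *Gabarap* genes, *Ulk1*, *Ulk2*, *Becn1*, *Sqstm1*, the *Bnip3* genes, *Lamp1* and *Lamp2*, all *Atp6v* subunits of the proton pump and all cathepsins named by a single letter. *Tfeb* was also sought by that name, and no probe carried it. The rule uses names and no measured value, although it was set with earlier results of these data known.

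RNA came from gastrocnemius (GAS) muscle of male C57BL/6 mice aged 15 weeks on normal diet, with 5 mice of each genotype in the design. *Gde5*, also named *Gpcpd1*, encodes an enzyme that splits glycerophosphocholine into choline and glycerol 3-phosphate. In *Gde5* skKO mice an exon of the floxed gene was removed by Cre under the human α-skeletal actin promoter (HSA-Cre), which acts in muscle fibres, so other cells of the muscle kept the gene. Controls are labelled wild-type, and whether they carried the floxed alleles is not stated for the arrays. Both genotypes were hybridised together on 2 two-colour Agilent arrays with the dyes swapped, *Gde5* skKO carrying Cy5 on array 1 and Cy3 on array 2. Whether the mice were fed, fasted or given glucose before sampling is not stated for these arrays. The paper describes array comparisons after a glucose injection and in fasting. Whether the 2 arrays share a condition is not stated either, so means over both may join different conditions. The labels do not say which mice, or how many, went onto each array, so all errors below describe spots and arrays and not the spread between mice. For *Gde5* itself, 3 of 4 probes fell to a mean log2 ratio between -3.18 and -2.93. The other probe, the brightest over all channels, gave -0.05 on array 1 and -0.47 on array 2. The rule given below reads only the brightest probe of each gene, and by it the deleted gene itself was not called.

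Autophagy is the process by which a cell wraps part of its own cytoplasm in a double membrane, the autophagosome, and delivers it to the lysosome for digestion. ULK kinases and the Beclin 1 complex start it, Atg proteins build the membrane and attach Atg8-family proteins such as LC3 to it, and receptors such as p62 select the cargo. The lysosome is acidified by a proton pump with a membrane sector, V0, and a cytosolic sector, V1, and cathepsins are its proteases. In skeletal muscle, autophagy clears damaged mitochondria and glycogen, and its genes are known to rise in fasting and denervation.

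None of the autophagy and lysosome genes taken by name was called higher or lower in *Gde5* skKO muscle. A few genes of other pathway lists were called, as given below, where 3.32% of all measured genes were called in either direction. All ratios below are log2 of *Gde5* skKO over WT, so that 0 is no difference and 1 is a doubling. A gene was called when its brightest probe had a p-value under 0.05 from the scanner software's error model on both arrays and pointed the same way on both. A gene counted as measured when the software marked its signal on each array as well above background for WT, *Gde5* skKO or both. Of the 65 genes, 50 were measured, 0 of these were called higher and 0 lower, against 1.58% called higher and 1.74% called lower among all 13571 measured genes. Calls of opposite sign on the arrays, termed following the dye below, were 0 of 50 as well, against 1.57% of all genes. With a single array in each dye orientation, the dye and any other difference between the arrays cannot be told apart. None of the 83 measured probes of these genes was called either.

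The median size of the ratios was close to that of all measured genes. With signs left out, the mean over both arrays had a median of 0.12 for the 50 genes and 0.14 for all measured genes. The 50 means over both arrays ran from -0.42 for *Atp6v1g1* to 0.51 for *Atg16l2* with a median of -0.04, beside 0.01 for all measured genes. On array 1 their median was 0.00 and on array 2 it was -0.06. Of the 50 genes, both arrays were above 0 for 11, both below 0 for 19, and the arrays were of opposite sign for 20. Of all 13571 measured genes, 3963, 3429 and 6179 fell in these classes.

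The precision of these ratios bounds the difference at each brightest probe, as far as spot errors reach. It does not show whether that probe reports the gene's whole transcript. A 95% interval for each mean was formed from the software's error of both spots, and it lay wholly inside 1.5-fold in either direction for 46 of 50 members (92.0%), beside 72.4% of all measured genes. Restricted to genes so marked for both genotypes on each array, these shares were 91.8% of 49 members and 79.1% of 12321 genes. The deleted gene also met this criterion. The brightest *Gde5* probe had an interval of -0.54 to 0.03, although the other *Gde5* probes fell far lower, as given above. An interval inside 1.5-fold therefore does not exclude a larger difference in the transcript. The smallest log2 ratio that would have been called if found on both arrays had a median of 0.40 over the members, a change of 1.32-fold, and ranged from 0.35 to 0.75. The 4 members whose interval reached past 1.5-fold at the brightest probe were *Atg16l2*, *Sqstm1*, *Atp6v1g1* and *Atp6v1g2*.

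**Figure D1:**
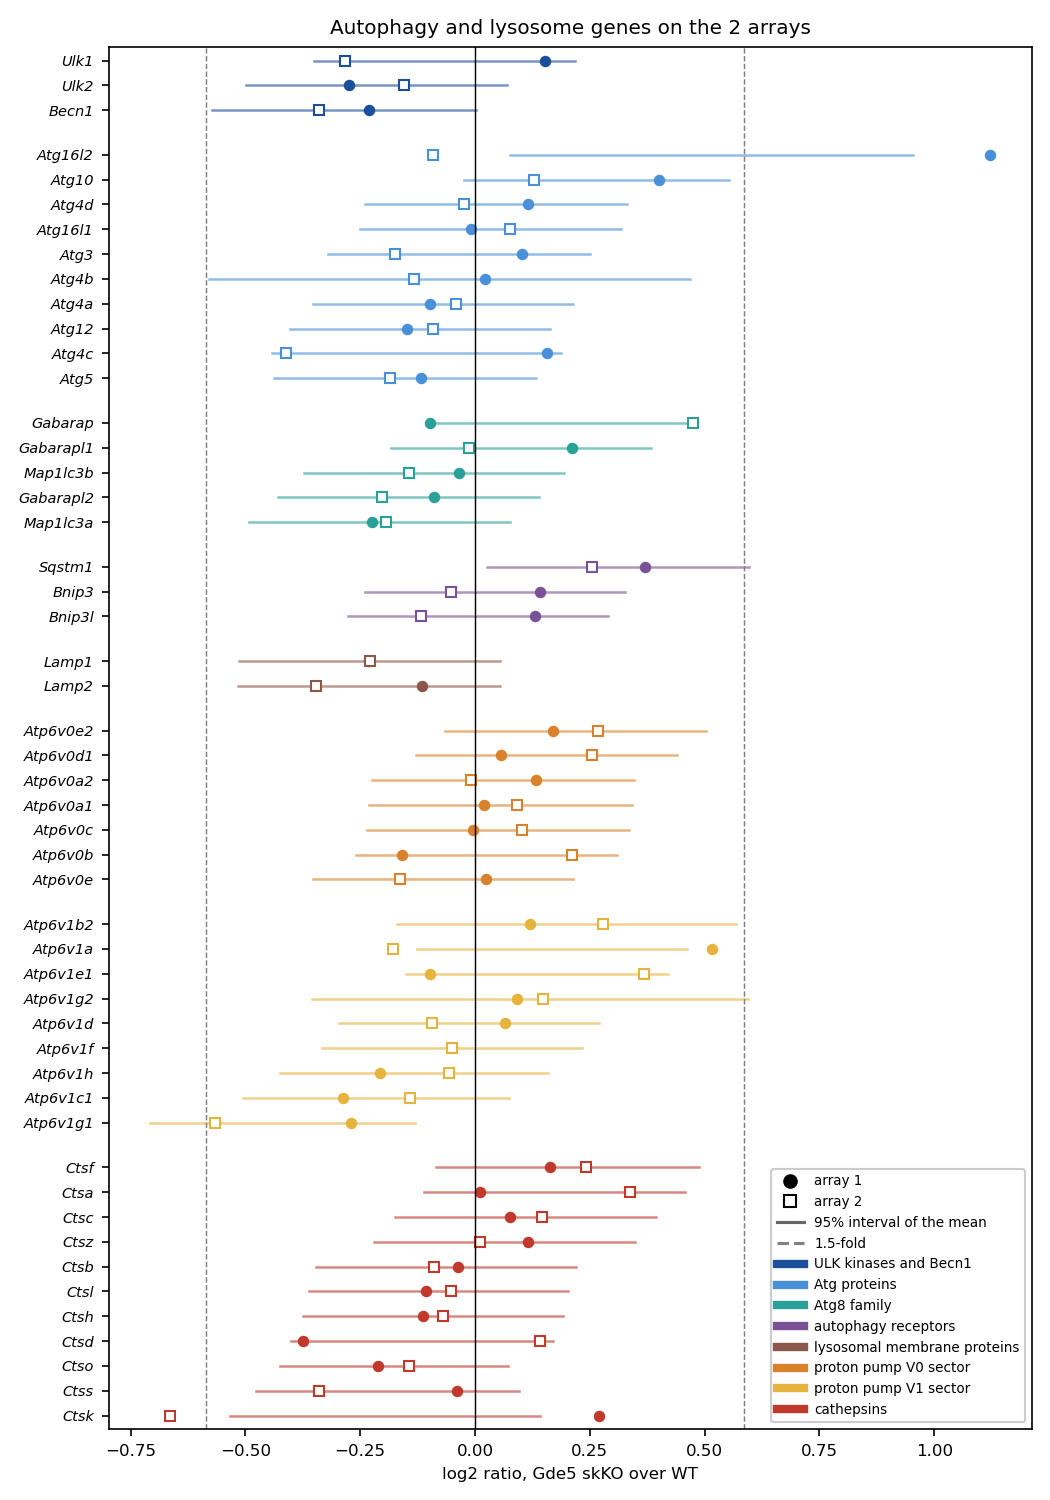
Log2 ratio of *Gde5* skKO over WT (horizontal axis) for the 50 measured autophagy and lysosome genes, grouped by role, with array 1 as filled circles, array 2 as open squares, and the 95% interval of the mean from spot errors as a line. Dashed lines mark 1.5-fold, and only *Atg16l2*, *Sqstm1*, *Atp6v1g1* and *Atp6v1g2* have intervals that cross them.

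The genes that start autophagy showed small ratios. *Ulk1*, the kinase that opens the pathway, gave processed signals of 16264 in *Gde5* skKO and 14638 in WT on array 1 and of 14263 and 17356 on array 2, so that the genotypes changed order between the arrays, with log2 ratios of 0.15 and -0.28. *Ulk2*, its paralog, was below WT on both arrays at -0.28 and -0.16, with a mean of -0.22 and an interval of -0.50 to 0.07. *Becn1* encodes Beclin 1, a subunit of the lipid kinase complex that marks the nascent membrane. Its signals were 1173 in *Gde5* skKO and 1377 in WT on array 1, and 819 and 1036 on array 2. *Gde5* skKO was thus the lower on both arrays, with a mean of -0.29, but the interval of -0.57 to 0.00 reached 0 and neither array passed the software's test for single spots.

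Among the *Atg* genes proper, 10 of 12 were measured, with a median of -0.05. *Atg5*, part of the conjugate that attaches LC3 to lipid, had the lowest mean of the group at -0.15, from -0.12 and -0.19. *Atg16l2*, a paralog of the scaffold that brings this conjugate to the membrane, had the highest. Its signals were 98.3 in *Gde5* skKO and 45.2 in WT on array 1, but 65.4 and 69.6 on array 2. The difference stood on array 1 alone, with log2 ratios of 1.12 ± 0.31 and -0.09 ± 0.33 (the software's error of the spot, here and below), and with normexp background correction and loess normalization the mean was 0.06. *Atg16l1*, the widely expressed paralog, gave -0.01 and 0.08. *Atg4b*, a protease that trims LC3, was well above background in only 1 channel on each array and its mean was -0.06, while a second, dimmer probe gave 2.14 on array 1 and -0.31 on array 2.

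The Atg8 family, whose lipid-bound members coat the autophagosome, was fully measured with 5 of 5 genes. *Map1lc3b*, the gene of LC3B, gave signals of 27127 in *Gde5* skKO and 27802 in WT on array 1 and of 29744 and 32863 on array 2. *Gde5* skKO was slightly lower on both, with ratios of -0.04 and -0.14 and an interval for the mean of -0.37 to 0.19. A second *Map1lc3b* probe gave -0.06 and -0.13, so both probes placed the gene within the same narrow range. *Map1lc3a* was the lowest of the family at -0.22 and -0.19, with a mean of -0.21 and an interval of -0.49 to 0.08. *Gabarapl2* gave -0.09 and -0.20. *Gabarapl1*, a member known to be induced when muscle loses mass, gave 0.21 and -0.01. *Gabarap* had the highest mean, 0.19, from -0.10 on array 1 and 0.48 ± 0.21 on array 2, where it passed the test. The arrays did not share a sign at this probe. A second *Gabarap* probe was above 0 on both arrays, at 0.13 and 0.22, and passed on neither.

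Cargo receptors included the gene nearest to a call on the higher side. *Sqstm1* encodes p62, which binds ubiquitin on cargo and LC3 on the membrane. Its signals were 42150 in *Gde5* skKO and 32621 in WT on array 1, and 33918 and 28439 on array 2. *Gde5* skKO was the higher on both arrays, at 0.37 ± 0.21 and 0.25 ± 0.21, neither of which passed the test. The mean of 0.31, or 1.24-fold, had an interval of 0.03 to 0.60. In a moderated test over all measured genes (limma, on the 2 dye-swapped ratios), *Sqstm1* was 1 of 50 members higher at an unadjusted p under 0.05, where 4.24% of all genes were higher, and its Benjamini-Hochberg adjusted p over all genes was 0.432. The mitochondrial receptors *Bnip3* and *Bnip3l* gave ratios of opposite sign on the arrays, with 0.14 and -0.05 for *Bnip3* and 0.13 and -0.12 for *Bnip3l*. A second, dimmer *Bnip3l* probe was below 0 on both arrays at -0.36 and -0.29, with a mean of -0.33 and an interval of -0.62 to -0.03, and it was not called. Over both probes the mean of *Bnip3l* turned from 0.01 to -0.16.

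**Figure D2:**
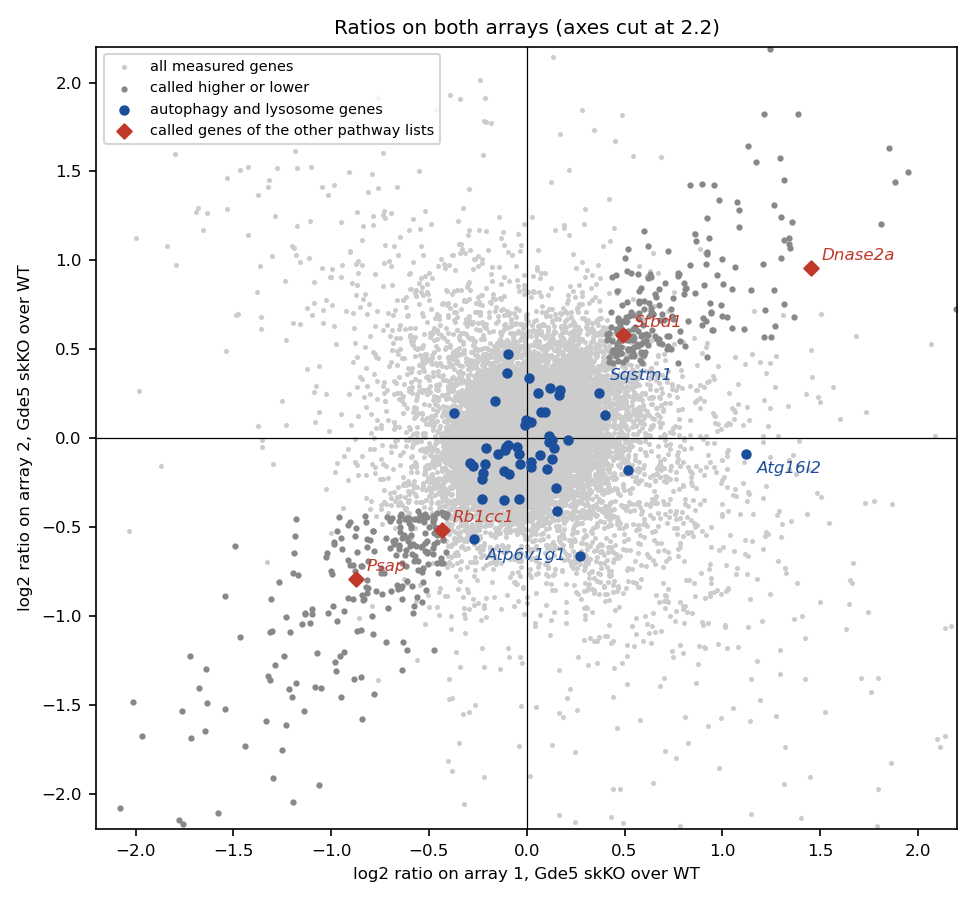
Log2 ratio of *Gde5* skKO over WT on array 1 (horizontal axis) against array 2 (vertical axis) for all measured genes (light grey), those called (dark grey), the 50 autophagy and lysosome genes (blue) and the 4 called genes of the other pathway lists (red). The blue points sit in the central cloud and none of them is called, and *Dnase2a* is drawn at the software's ratio although its WT signal was not well above background.

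By their brightest probes, both glycoproteins of the lysosomal membrane had values below 0 on each array without passing the test. *Lamp1* gave signals of 34013 in *Gde5* skKO and 39894 in WT on array 1 and of 36278 and 42522 on array 2. The 2 ratios, -0.23 and -0.23, were nearly equal, with an interval of -0.51 to 0.05. *Lamp2*, whose product is needed for fusion of autophagosomes with lysosomes, gave -0.12 and -0.35, and its mean of -0.23 had an interval of -0.52 to 0.05. Its other probes did not share one pattern, since one gave -0.36 on array 1 and 0.26 on array 2 and the dimmest gave -0.47 and -0.18.

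No subunit of the proton pump was called. At their brightest probes, all 7 measured V0 genes of 9 had means between -0.07 for *Atp6v0e* and 0.22 for *Atp6v0e2*, with a median of 0.06. *Atp6v0e2* gave 0.17 and 0.27, with an interval of -0.06 to 0.50. *Atp6v0e* had a second, dimmer probe with -0.04 on array 1 and -1.11 on array 2, a difference that only 1 array carried. The mean of that probe was -0.58, with an interval of -0.92 to -0.23. Other dimmer probes lay higher than the brightest ones, and none was called. Their means were 0.41 for *Atp6v0a2* (0.05 to 0.77), 0.37 for *Atp6v0a1* (-0.004 to 0.75) and 0.33 for *Atp6v0e2* (0.03 to 0.63).

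In the V1 sector 9 of 13 genes were measured, with a median of -0.01. *Atp6v1g1* encodes a G subunit of the stalk that links V1 to V0, and it was the lowest of the 50 members. Its signals were 28327 in *Gde5* skKO and 34173 in WT on array 1, and 24637 and 36477 on array 2. *Gde5* skKO was the lower on both arrays, at -0.27 ± 0.21 and -0.57 ± 0.21, so the second array passed the test and the first did not. A second probe gave -0.28 and -0.45, and the means of the 2 probes, -0.42 and -0.37, lay closer together than the arrays did. Both probes lie on chromosome 4 of mm8, at 63036938 to 63036997 and at 63036426 to 63036485 on the plus strand. The interval for the brighter probe was -0.71 to -0.13, or a mean fold of 0.748. In limma's test *Atp6v1g1* was 1 of 50 members lower at an unadjusted p under 0.05, where 4.27% of all genes were lower, and the adjusted p from limma was 0.155.

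Other V1 subunits had values on either side of 0. *Atp6v1b2*, a nucleotide-binding subunit, had the highest mean at 0.20, from 0.12 and 0.28, but its mean was 0.03 with normexp and loess, where *Atp6v1a* was the highest at 0.13. *Atp6v1a*, the catalytic subunit, gave 0.52 ± 0.21 on array 1, where it passed the test, and -0.18 ± 0.21 on array 2, opposite in sign. A second, dimmer *Atp6v1a* probe gave 0.02 on array 1 and 0.51 ± 0.22 on array 2, where it passed the test. *Atp6v1g2*, the paralog of *Atp6v1g1*, gave 0.09 and 0.15 from dim spots, with an interval of -0.35 to 0.59 that left a difference of 1.5-fold possible.

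Cathepsins had 11 measured genes of 18, all with intervals inside 1.5-fold at their brightest probes. A second *Ctsa* probe gave 0.29 and 0.36, with an interval of 0.04 to 0.61 that reached past 1.5-fold, and it was not called. The dimmest *Ctsa* probe gave -0.48 and 0.17. The major muscle proteases were near 0. *Ctsl*, which is known to rise when muscle wastes, gave signals of 8610 in *Gde5* skKO and 9270 in WT on array 1 and of 8114 and 8415 on array 2, ratios of -0.11 and -0.05. *Ctsb* gave -0.04 and -0.09. *Ctsd*, the main aspartic protease of the lysosome, gave -0.37 and 0.14 at its brightest probe, and so changed sign with the array. A second *Ctsd* probe changed sign the other way, at 0.09 and -0.05. The highest mean was that of *Ctsf*, 0.20, from 0.16 and 0.24. The lowest was that of *Ctsk*, a collagen-degrading protease best known from osteoclasts, with -0.20 from 0.27 on array 1 and -0.66 ± 0.25 on array 2, the array on which it passed the test. Neither rank held with normexp and loess, where *Ctsf* was at 0.10 and *Ctsk* at -0.09, and *Ctsa* was the highest at 0.16 and *Ctss* the lowest at -0.14.

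Whole muscle holds other cells rich in cathepsins, and fewer cells of a type and less RNA per cell cannot be told apart in these samples. Of 14 macrophage and leukocyte markers, 12 were measured and 0 were called, with a median of -0.11. Their summed signal was 13189 in *Gde5* skKO and 14076 in WT on array 1, and 12365 and 14875 on array 2, while *Itgam* was not above background in any channel. Of 10 muscle fibre markers, all 10 were measured and 0 were called. Of 8 fibroblast and tendon markers, all measured, 0 were called, and of 4 osteoclast markers 2 were measured and 0 were called higher or lower, *Oscar* following the dye. Fat cell markers differed, since 5 of 6 measured were called lower, among them *Cfd*, the gene of adipsin, with a mean of -0.90. Their summed signal was 43232 in *Gde5* skKO and 43777 in WT on array 1, and 41144 and 45066 on array 2, but most of it came from *Fabp4*, which was not called. Without *Fabp4* the sums were 4365 and 8139 on array 1 and 4376 and 7879 on array 2, and *Lep* was not above background in any channel. The part of these cells in the ratios of the members and of the called genes below was not tested.

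Single arrays passed the test for few members. On array 1, 2 of 50 members (4%) had a p-value under 0.05, *Atg16l2* and *Atp6v1a*, both higher, beside 12.1% of all measured genes. On array 2 there were 3 (6%), with *Gabarap* higher and *Atp6v1g1* and *Ctsk* lower, beside 13.8% of all genes. No gene was in both sets, which read only the brightest probe of each gene. The dimmer *Atp6v1a* probe passed on array 2.

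More than 1 measured probe was available for 26 of the 50 genes, which gives a check inside each gene. The probes' means differed by less than 0.5 for 24 of these, and the median range was 0.13. Exceptions were *Atg4b*, with a range of 0.97, and *Atp6v0e*, with 0.51, and in both a dimmer probe departed on a single array.

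**Figure D3:**
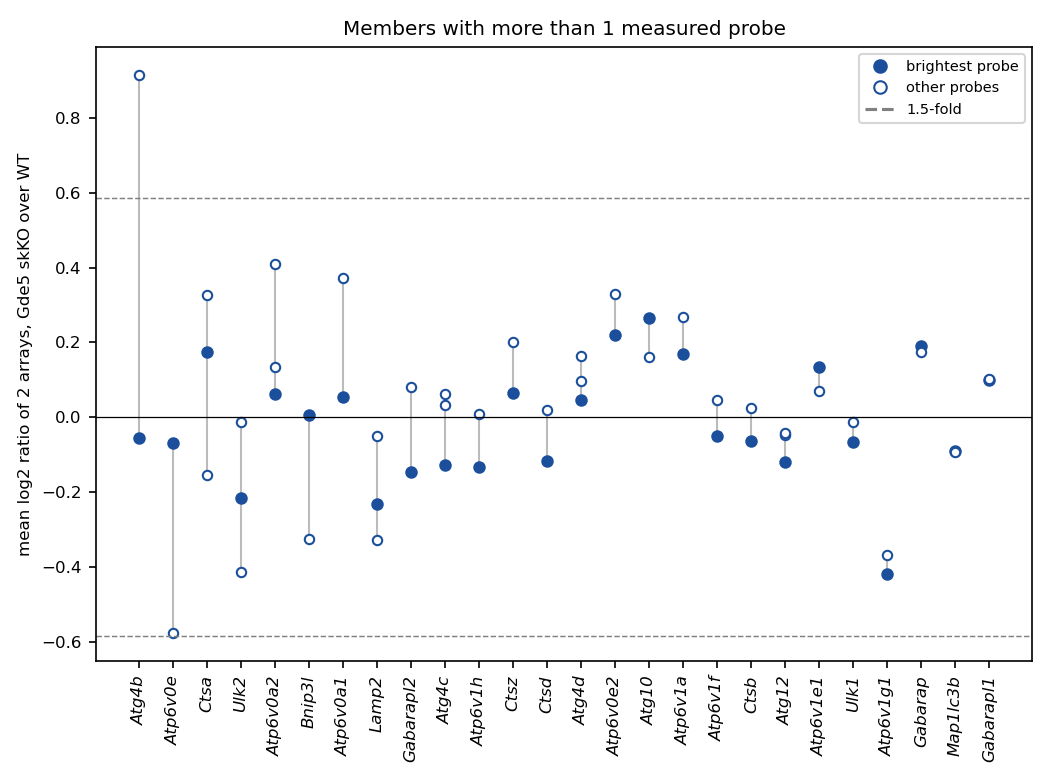
Mean log2 ratio of *Gde5* skKO over WT over both arrays (vertical axis) for every measured probe of the 26 members with more than 1, the brightest probe filled and the others open, ordered by the range within the gene. Ranges stay under 0.5 except for *Atg4b* and *Atp6v0e*, and the 2 probes of *Atp6v1g1* lie together below 0.

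Most members that were not detected are known from other tissues. Of the 15 members not measured, 11 were well above background in no channel of either array. Among these were *Atp6v0a4*, *Atp6v1b1*, *Atp6v1c2* and *Atp6v1g3*, pump subunits known from kidney among other organs, *Atp6v1e2*, known from testis, the placental cathepsins *Ctsj*, *Ctsm*, *Ctsq* and *Ctsr*, the lymphocyte protease *Ctsw*, and *Atg9b*. The remaining 4, *Atg7*, *Atp6v0d2*, *Ctse* and *Ctsg*, were seen in some channels only. *Atg7* encodes the activating enzyme of both conjugation steps, and its signals were 42.6 in *Gde5* skKO and 91.5 in WT on array 1 but 63.0 and 18.4 on array 2, where neither was well above background. The ratios of -1.10 and 1.78 were opposite in sign, and with normexp and loess they were -0.066 and 0.045. Dye and array cannot be told apart here, and no level of *Atg7* could be given for either genotype. For *Atp6v0d2*, a subunit known from osteoclasts and macrophages, only the WT channel of array 2 was well above background.

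Lysosomal genes are known to share a promoter element read by TFEB and its relatives, and sequences of this element are shown for the members that carry it. Promoters from 250 bases before to 50 bases after the gene start were available for 50 of the 65 genes from RefSeq (build GRCm38.p6). The element core TCACGTGA, which contains the shorter CACGTG and reads the same on both strands, was present in 6 of 50 members (12%) and in 1.12% of 27025 genes. CACGTG, counted whether or not it lay within the longer core, was present in 13 members (26%) and in 8.09% of genes. The forkhead core GTAAACA, searched on both strands, was present in 1 member (2%) and in 4.05% of genes. Each window below is 30 bases on the gene's strand, with the element in capitals. *Ctsa* has 2 elements.
Atg3, chr16:45158746-45158775: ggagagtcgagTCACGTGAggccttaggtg
Atp6v0d1, chr8:105566050-105566079: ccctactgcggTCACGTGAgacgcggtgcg
Atp6v0e, chr17:26676387-26676416: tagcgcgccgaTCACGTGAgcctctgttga
Atp6v1a, chr16:44139373-44139402: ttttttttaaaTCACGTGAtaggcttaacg
Ctsa, first element, chr2:164833749-164833778: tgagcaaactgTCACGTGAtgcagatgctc
Ctsa, second element, chr2:164833766-164833795: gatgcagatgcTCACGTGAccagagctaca
Ctsd, chr7:142387908-142387937: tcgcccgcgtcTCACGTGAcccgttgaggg

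All 6 genes with these windows were measured, and their mean ratios ran from -0.12 for *Ctsd* to 0.17 for *Ctsa* with a median of 0.06. The 32 measured members whose promoter was available and lacked TCACGTGA had a median of 0.01. A match to these letters is a description of the promoter and not evidence of binding in this muscle. *Tfeb* itself was represented under its older name *Tcfeb* and was not measured, with 0.62 on array 1 and -0.66 on array 2, because neither channel was well above background on the second array.

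A further 5 genes of the same families stood on the arrays under older names and were measured, with none called. *Atg101*, which stabilises the ULK complex, was higher on both arrays at 0.38 and 0.33, without passing the test on either. Its signals were 4136 in *Gde5* skKO and 3189 in WT on array 1, and 4648 and 3710 on array 2, with an interval for the mean of 0.06 to 0.64. Its adjusted p in limma's test was 0.329. *Atg14*, the autophagy-specific subunit of the Beclin 1 complex, lay below 0 at -0.13 and -0.33.

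In the wider pathway 4 genes were called, and 3.32% of all measured genes were called in either direction. The share called was 5.56% of the initiation list, 8.33% of the receptors, 5.88% of the hydrolases and 0% of the membrane and transport genes. With so few calls per list, they are given as single genes and not as a result about the pathway. Of 18 further genes of the ULK and lipid kinase complexes and the early membrane, all measured, 0 were called higher and 1 lower. *Rb1cc1* encodes FIP200, the scaffold of the ULK complex, and gave signals of 3686 in *Gde5* skKO and 4980 in WT on array 1 and of 3662 and 5249 on array 2. These are ratios of -0.43 ± 0.21 and -0.52 ± 0.21. Another 4 measured probes of *Rb1cc1* were not called and had means between -0.17 and 0.04, so the lower value stood on 1 probe of 5. limma's adjusted p for *Rb1cc1* was 0.118.

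Of 12 measured receptors outside the members, *Stbd1* was called higher and 0 were called lower. *Stbd1* encodes a protein that binds glycogen and Gabarapl1 and is held to carry glycogen to the lysosome. Its signals were 4222 in *Gde5* skKO and 3001 in WT on array 1, and 4929 and 3300 on array 2. The ratios were 0.49 ± 0.21 and 0.58 ± 0.21, and a second probe was called as well at 0.42 and 0.54, while the dimmest of its probes gave 0.07 and 0.63. limma's adjusted p for *Stbd1* was 0.0861. *Gaa*, the lysosomal enzyme that digests glycogen, gave ratios of 0.00 and 0.03, with an interval for the mean of -0.27 to 0.30.

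Among 34 measured lysosomal hydrolases and their activators, 1 was called in each direction. *Psap* encodes prosaposin, the precursor of the saposins that present lipids to lysosomal enzymes. Its signals were 1437 in *Gde5* skKO and 2630 in WT on array 1, and 1540 and 2674 on array 2, so both *Gde5* skKO values lay well under both WT values. The ratios were -0.87 ± 0.22 and -0.80 ± 0.22, a second probe was called at -0.66 and -0.70, and limma's adjusted p was 0.0225. *Dnase2a*, the lysosomal DNase, was called higher, with signals of 79.8 and 59.3 in *Gde5* skKO. Its WT signal was not well above background on either array, so the gene passed the filter only through the genotype in which it was the brighter. On channel levels after normexp and loess, *Gde5* skKO was 1.2-fold WT. This is an estimate at WT's own level and not a lower limit of the fold. limma's adjusted p was 0.474, and a second *Dnase2a* probe was not measured. In the other lists, 0 of 34 lysosomal membrane and transport genes, 0 of 3 measured transcription factors, 0 of 4 measured cathepsin inhibitors and 0 of 2 atrophy ubiquitin ligases were called. Those ligases, *Fbxo32* and *Trim63*, had means of 0.01 and -0.21.

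**Figure D4:**
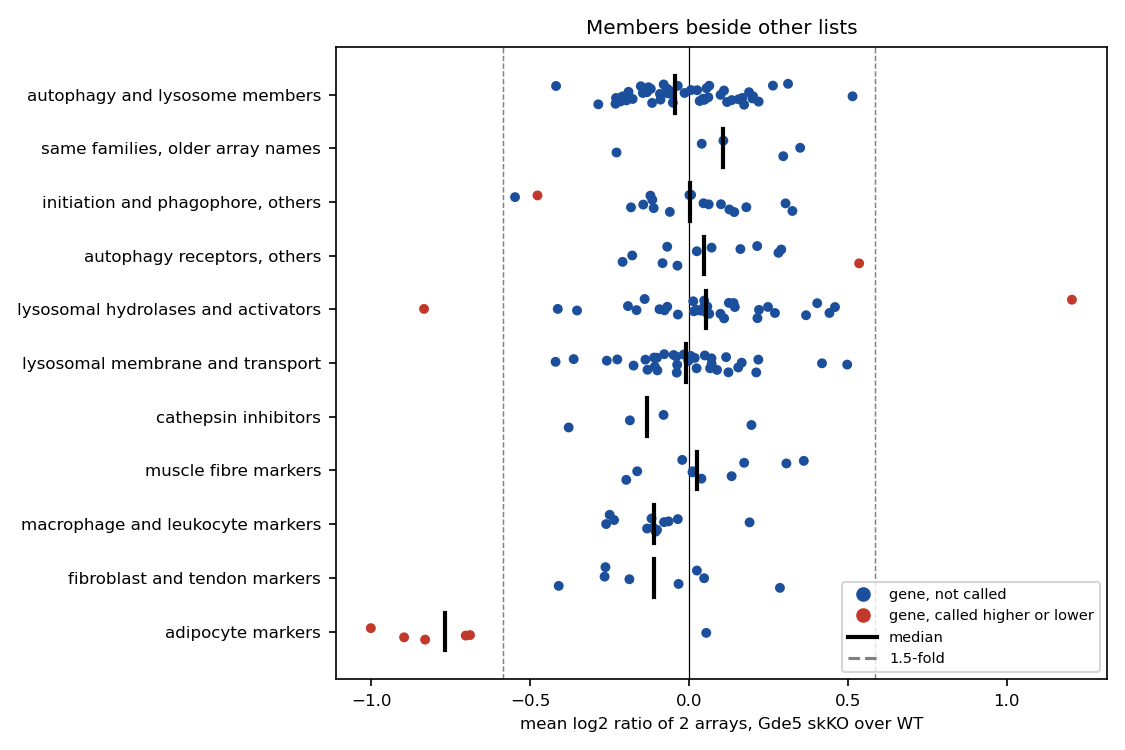
Mean log2 ratio of *Gde5* skKO over WT over both arrays (horizontal axis) for measured genes of the members and of 10 other lists, with called genes in red, medians as black bars and 1.5-fold as dashed lines. Called genes are *Rb1cc1*, *Stbd1*, *Psap* and *Dnase2a* in the pathway lists, *Dnase2a* being drawn at the software's ratio although WT was not well above background, and 5 adipocyte markers, while none of the 50 members is red.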

How the data were processed

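GAS muscle RNA of WT and *Gde5* skKO mice was compared on 2 dye-swapped arrays lying on 1 slide and scanned once. The authors processed the scans with Agilent Feature Extraction, 9.5.3.1 per the file headers. Each deposited file gives a log10 ratio of Cy5 over Cy3 per spot, after background subtraction and dye normalization. The deposited files also hold the software's p-value and error for each ratio. The intensity of each spot and its processed signal in each channel were deposited too.

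Ratios were put on the log2 scale, oriented as *Gde5* skKO over WT by the dyes in the labels, and averaged over spots of a probe. Control spots, outlier-marked spots (164 and 200) and spots beside debris (11 and 0) were left out, and none of the 118 member spots was among these or saturated. Well above background were 44.6% to 53.2% of spots per channel, and only 2 arrays limit the precision. Probes were named by accession (24375), symbol (6301) or synonym (2426) through RefSeq, and 8072 kept the array's name. A gene's value is that of its brightest probe. Intervals are the mean ± 1.96 times the combined spot error.

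Members, lists and tests were chosen with earlier results of these data known. Named by rule were called members, the highest and lowest of each role, well-known genes of the pathway (*Ulk1*, *Becn1*, *Sqstm1*, *Lamp1*, *Ctsl* and the like), *Gde5*, and called genes of other lists. Other genes, such as *Atp6v1a*, *Atg4b*, *Atg7* and *Gaa*, were named after their values were seen. Alternatives were limma 3.58.1 (R 4.3.3) on normexp (offset 50) and loess ratios, no background correction, the deposited series table, all probes, other filters, the methods' t-test and single arrays. For a gene not well above background in 1 genotype on both arrays, the fold comes from normexp, loess and Aquantile channel levels. The dim side is set to its own level or, if that is lower, to the least level well above background. For *Dnase2a* it was WT's own level, so the fold is an estimate and not a bound. Adjustment was by Benjamini-Hochberg over 13571 genes. Scripts ran under Python 3.11.15 with pandas 2.3.3, numpy 2.4.6, matplotlib 3.10.9 and scipy 1.17.1 and were tested on simulated data.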

Additional observations from a re-analysis of the deposited data

How the results depend on the processing

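The median ratio of the members stayed between -0.06 and 0.00 under every alternative run. With both arrays kept, 4 of 299 member means changed sign, all from means within 0.12 of 0: *Atg4b* over all probes (-0.06 to 0.43) and with no background correction (0.01), *Bnip3l* over all probes (-0.16) and *Atp6v1g2* with normexp and loess (-0.01). With 1 array alone, 20 genes changed sign, those whose arrays were opposite. Counts of called members moved as follows. With limma's unadjusted p, 1 was higher (*Sqstm1*), 1 lower (*Atp6v1g1*) and 3 followed the dye, against 575, 580 and 634 of all genes; after adjustment, 0 members passed. With the methods' t-test, unadjusted, 1 was higher (*Atp6v0e2*), 0 lower and 1 followed the dye, against 617, 571 and 726 of all genes; after adjustment, 0 genes passed. With no filter on dim spots, 1 followed the dye (*Atg7*), against 360 of all genes. With a single array the counts ran from 1 to 2 higher and from 0 to 2 lower, and no test across arrays remained. Both genotypes share each array, so the ratios are already paired. The slide could not enter as a block, there being only 1. Dim spots set the widest intervals, and the cause of the other moves was not tested.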
